A study of Mus musculus with 12 samples.

Results

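Imprinted genes are genes whose RNA comes mainly from the copy inherited from one parent. The 39 described here are the rows of the deposited count tables whose gene name is in a list of mouse genes with parent-of-origin expression, and all 39 were found among the 55357 genes of the tables. They fall into 16 loci, and by textbook knowledge 22 are transcribed mainly from the paternal copy, 15 from the maternal copy, at least in some tissues, and 2 (Grb10 and Gnas) from either copy according to tissue or promoter. RNA-seq was made from the cerebral cortex together with the hippocampal formation of mouse pups at postnatal day 5, with each cortex divided into a rostral and a caudal part. Knockout animals (called cKO here) carried 2 floxed alleles of Egfr, the epidermal growth factor receptor gene, and a Cre recombinase driven by Nestin, a gene of neural progenitors. Controls carried 1 floxed and 1 wild-type Egfr allele by the series description, while their genotype field reads WT, and whether they carried Cre is not given. Each genotype had 3 animals, T4, T8 and T70 for control and T3, T6 and T80 for cKO, and each animal gave 1 rostral and 1 caudal library, so that 4 groups of 3 libraries were compared. A Nestin-driven Cre acts in neural progenitors and their progeny, and meningeal, vascular and blood cells are not its main target. No sex or litter is given for the pups, and p-values measure the spread between the libraries of these animals only.

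Imprinting rests on DNA methylation set in the germ line at a control region of each locus and kept after fertilisation by factors such as the zinc finger protein ZFP57. Many imprinted loci pair growth-promoting genes expressed from the paternal copy with growth-limiting genes or long noncoding RNAs expressed from the maternal copy. In brain, imprinted genes are known for roles in progenitor growth, neuronal maturation and hormone-related behaviour. The libraries count RNA from both parental copies together, so the values are total levels and say nothing of which copy was used.

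The Dlk1-Dio3 locus on chromosome 12 holds 3 maternally expressed noncoding RNAs, Meg3, Rian and Mirg, which also host microRNAs. Of the 39 genes, 8 had at least 1 microRNA gene inside their span, with 14 microRNA genes in Mirg, 3 in Rian and 2 in Meg3. The mature sequences below come from RefSeq, written 5′ to 3′ with the seed (bases 2 to 8) in capitals, and are shown because their host RNAs Meg3, Mirg and H19 carry much of the description that follows. The libraries were made from captured mRNA and did not measure mature microRNAs. The first is hosted by Meg3, the next pair by Mirg and the last by H19, and no seed is shared among these 4. Over all 56 mature sequences matched to the 39 genes, miR-453 and miR-496a-5p were the one pair with a common seed.
miR-770-5p: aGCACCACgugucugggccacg
miR-134-5p: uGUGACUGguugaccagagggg
miR-410-3p: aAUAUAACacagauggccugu
miR-675-5p: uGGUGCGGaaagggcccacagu

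The promoter table of RefSeq (GRCm38.p6, an earlier build than the GRCm39 coordinates of the count tables) held an entry for 31 of the 39 genes. The hexamer TGCCGC, the core of the ZFP57 motif, was searched on both strands in the 250 bases before each start. It was present for 7 of the 31 imprinted genes (22.58%) and for 2660 of all 27025 genes with an entry (9.84%). Of the 10 imprinted genes that differed between control regions (given further on), 7 had an entry and 2 held the hexamer, Zim1 and Plagl1. The windows of these 2 genes and of Meg3 are printed 5′ to 3′ on the gene's strand, with the hexamer or its reverse complement GCGGCA in capitals. A match is a match of letters and not a measured binding site.
Meg3, chr12:109540746-109540995, + strand: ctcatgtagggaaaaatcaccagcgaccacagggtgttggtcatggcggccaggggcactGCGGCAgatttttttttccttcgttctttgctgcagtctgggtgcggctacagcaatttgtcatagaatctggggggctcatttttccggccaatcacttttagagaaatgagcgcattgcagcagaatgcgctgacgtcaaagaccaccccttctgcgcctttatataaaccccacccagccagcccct
Zim1, chr7:6696433-6696682, - strand: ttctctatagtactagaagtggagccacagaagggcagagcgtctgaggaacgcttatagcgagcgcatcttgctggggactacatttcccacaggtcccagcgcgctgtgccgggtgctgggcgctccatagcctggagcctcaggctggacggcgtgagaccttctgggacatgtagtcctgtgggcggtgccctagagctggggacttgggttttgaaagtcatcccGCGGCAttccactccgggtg
Plagl1, chr10:13090582-13090831, + strand: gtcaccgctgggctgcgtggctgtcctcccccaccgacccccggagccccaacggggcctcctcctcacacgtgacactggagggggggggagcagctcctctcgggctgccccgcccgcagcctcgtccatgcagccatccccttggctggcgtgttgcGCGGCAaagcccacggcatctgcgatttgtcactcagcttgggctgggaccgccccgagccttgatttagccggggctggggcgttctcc

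The library totals lay between 43810241 counts, in caudal T3 of cKO, and 87170063 counts, in rostral T6 of cKO. Genes of cortical neurons were present in every library, with a sum over 10 genes of 6394 to 9094 CPM. CPM stands for counts scaled to library size, with TMM factors over all 12 libraries. As a check of the labels, Egfr was 41.6, 39.7 and 48.99 CPM in control rostral libraries and 45.4, 39.3 and 40.3 in control caudal libraries. In cKO it was 10.3, 6.39 and 12.6 in rostral and 5.73, 14.7 and 9.53 in caudal libraries, below every control library. Throughout, 3 values of a group are given in the animal order T4, T8 and T70 for control and T3, T6 and T80 for cKO, and means are given ± SD with n = 3 animals. The cKO libraries stood apart from each other. A regional score was built from the 2492 genes that differed between control regions, such that control rostral libraries average 0 and control caudal libraries average 1. Rostral cKO libraries scored 0.855, -0.0783 and 0.638 on it in animal order, and caudal cKO libraries 0.557, 1.15 and 0.811. The cKO rostral library of T6 differed from the other 2 of its group by a median of 0.352 log2 units per gene, against at most 0.204 in any other library, and mitochondrial genes took 8.18% of its counts against 1.85% to 3.98% elsewhere.

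The imprinted genes together took 0.424% to 0.552% of the counts of a library. Of the 39, 33 were at or above 1 CPM in every library, 10 were above 100 CPM in every library, and 3 (Rtl1, Phlda2 and Slc22a18) were under 1 CPM in every library. Per kilobase of exon length, the highest mean level in control rostral cortex was that of Snrpn, a component of small nuclear ribonucleoproteins, at 147 CPM per kb. Next came Nnat, a membrane proteolipid of developing neurons, at 139 CPM per kb. Gnas, which encodes the stimulatory G protein alpha subunit, stood at 80.6 CPM per kb, the noncoding RNA Peg13 at 53.5 and Ndn (necdin) at 52.7. In control caudal cortex the order of the first pair was the other way round, with Nnat at 300 and Snrpn at 149 CPM per kb.

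**Figure D1:**
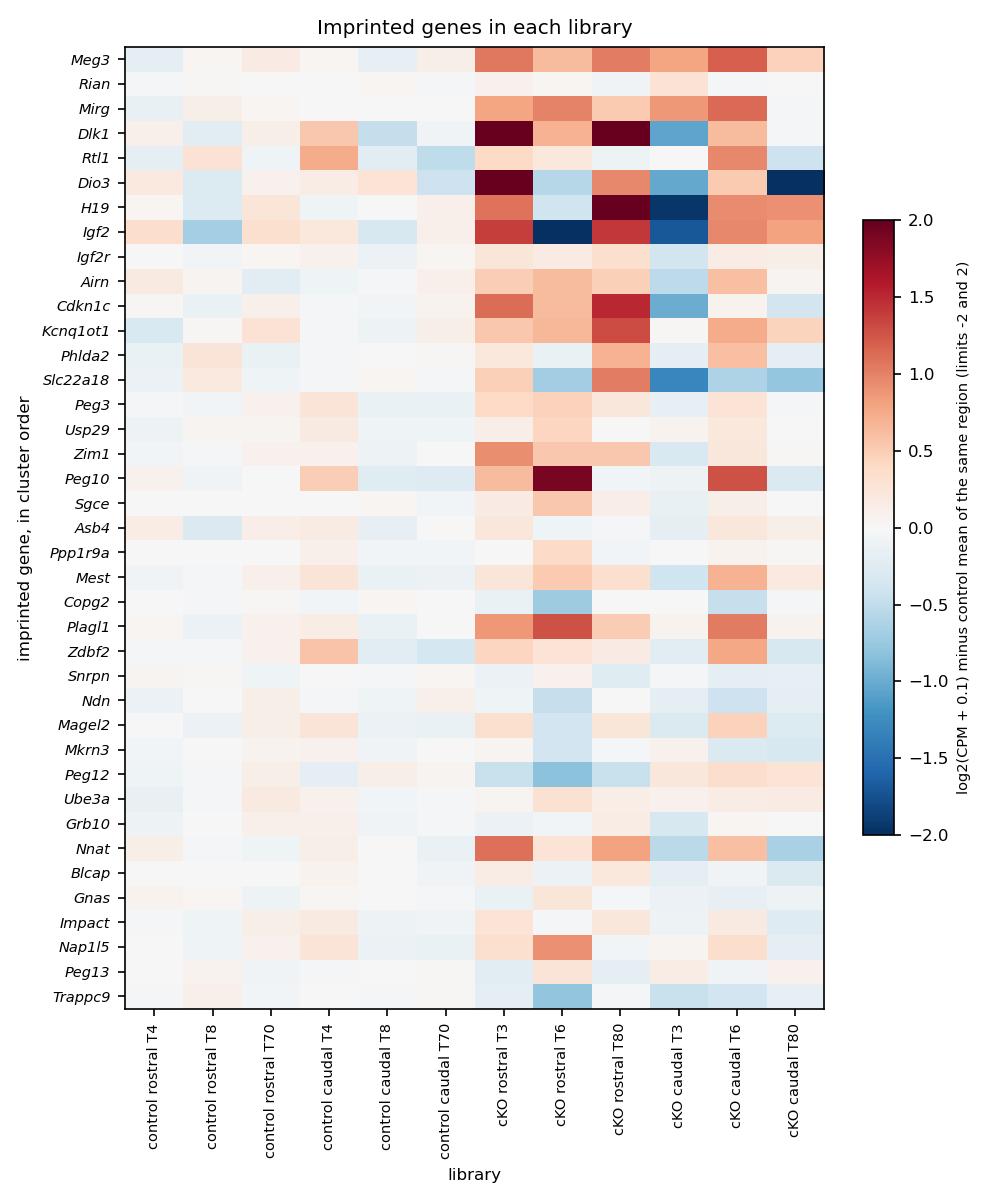
Each row is 1 of the 39 imprinted genes in the order of their loci and each column 1 of the 12 libraries. Colour is log2(CPM + 0.1) minus the control mean of the same region, with the scale limited to -2 and 2. Meg3 is above its control mean in all 6 cKO libraries, while Igf2 is below it in cKO rostral T6 and cKO caudal T3.

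The question the design poses is what the loss of Egfr does to the transcriptome of each cortical region. Of the imprinted genes, the noncoding RNA Meg3 was higher in every cKO library than in any control library, 1.88 times by the rostral means and 1.79 times by the caudal means. In rostral cortex 13 others also lay above every control library, among them the growth inhibitor Cdkn1c (2.20 times by the means), the neuronal proteolipid Nnat (1.69 times), the zinc finger genes Zim1 (1.61 times) and Plagl1 (1.89 times), and the scarce Notch-family gene Dlk1 (3.95 times), against 9.05% of all genes. In caudal cortex these 5 genes overlapped between genotypes.

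In rostral cortex, 36 of the 39 imprinted genes had counts enough to be tested. None passed edgeR's quasi-likelihood test with Benjamini-Hochberg adjustment over all 20599 genes tested, where 0 genes passed (0.0% of all genes). At an unadjusted p under 0.05, 14 imprinted genes were higher and 1 was lower in cKO, 41.7% of the 36 against 9.49% of all genes (5.51% higher and 3.98% lower). Among these 15, the edgeR adjusted p ran from 0.266 for Meg3 to 0.52 for Dio3, and the log2 fold change from -0.58 (Peg12) to 3.16 (Dio3). The median log2 fold change of the 36 was 0.27, beside 0.04 over all genes. Groups did not overlap for 15 of the 36, with 14 above every control library (9.05% of all genes) and 1, Peg12, below (10.7% of all genes). DESeq2 called 7 of the 36 (394 of all genes), and limma voom with a quality weight per library, added after the data were seen, called 10 (974 of all genes). Without animal T6, edgeR called 8 of them, all higher in cKO: Cdkn1c, Dlk1, Igf2r, Meg3, Mirg, Nnat, Plagl1 and Zim1, among 1058 genes called. With the filter on low counts removed, edgeR called 1, Meg3, among 45.

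Marker genes of several cell types had log2 fold changes mostly of 1 sign between genotypes in the same rostral libraries. Of 8 genes of striatum and ventral forebrain, 8 had a negative log2 fold change (median -1.46, 5 at an unadjusted p under 0.05), and their sum was 70.8 to 237 CPM in control and 52.9 to 70.7 CPM in cKO. Of 10 astrocyte genes, 9 were negative (median -0.94, 5 at an unadjusted p under 0.05), with sums of 2085 to 2333 CPM in control and 912 to 2292 CPM in cKO. Of 10 genes of the oligodendrocyte lineage, 9 were negative (median -0.90, 8 at an unadjusted p under 0.05), with sums of 601 to 646 CPM in control and 322 to 484 CPM in cKO. By contrast 12 of 12 meningeal genes (median 0.75) and 9 of 9 choroid plexus genes (median 1.48) had a positive log2 fold change. At an unadjusted p under 0.05 there were 0 of the meningeal and 2 of the choroid plexus genes. Positive too were 7 of 8 interneuron genes (3 by this rule) and 6 of 8 microglia genes (2). The same held for 6 of 8 hippocampal genes (2) and 7 of 10 genes of radial glia and neural stem cells (3). All 6 erythroid genes were negative (1 by this rule). Meningeal sums were 168 to 370 CPM in control and 36.5 to 697 CPM in cKO. The sum over 10 choroid plexus genes was 7.30 to 8.76 CPM in control. In cKO it was 403 CPM in T3, 4.96 in T6 and 18.6 in T80, so that T6 lay below every control library. No gene of these lists passed the adjustment in rostral cortex, and no marker was at 0 in all libraries of a group. The part of these cell types in the values of the imprinted genes was not tested.

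In caudal cortex, 37 imprinted genes were tested and none passed, while 17 of all 20705 genes did (0.0821%, with 0.0145% higher and 0.0676% lower). At an unadjusted p under 0.05, 3 were higher and 3 lower, 16.2% against 14.5% of all genes (7.65% higher and 6.86% lower), so the share was near that of all genes. Their median log2 fold change was 0.03, beside 0.00 over all genes. Meg3 and Peg12 were above every control caudal library (10.4% of all genes), and Gnas, Ndn, Slc22a18, Snrpn and Trappc9 below (12.6% of all genes). DESeq2 called Meg3 and Trappc9 (517 of all genes) and limma voom with quality weights none (373 of all genes). Leaving out T3 brought 1 edgeR call, H19 higher, and leaving out T6 brought 1, Nnat lower. Neither gene was called in caudal cortex under any other setting. Calls over all genes with an animal left out are given further on as a range only. These calls are thus not read as particular to H19 or Nnat.

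**Figure D2:**
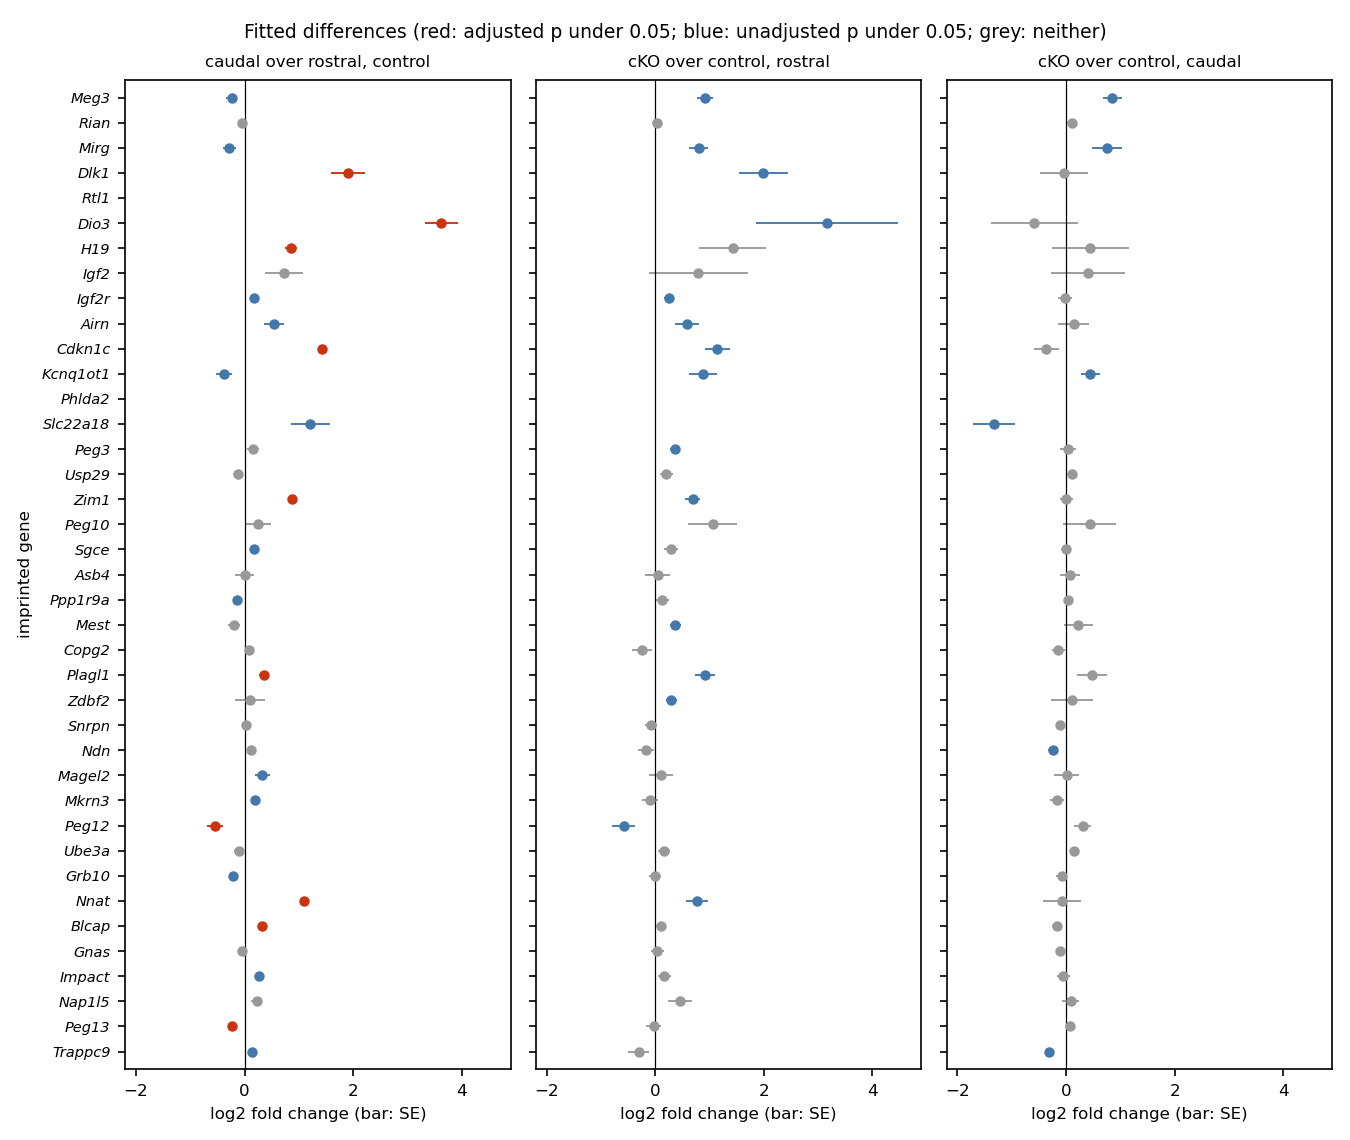
Each row is an imprinted gene, the horizontal axis is the log2 fold change of the comparison named above each panel, and bars are 1 SE of the fit. Meg3 lies near 0.9 for genotype in both regions, while Cdkn1c, Nnat and Zim1 lie to the right for region in control animals.

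When the rostral and caudal counts of each animal were added, 38 imprinted genes were tested and Meg3 alone passed edgeR's test, against 41 of 22924 genes (0.179%, with 0.0829% higher and 0.096% lower). At an unadjusted p under 0.05, 7 were higher and 1 lower, beside 8.24% and 7.15% of all genes (15.4% in all). Meg3, a long noncoding RNA named maternally expressed gene 3 (ENSMUSG00000021268.18, chr12:109506884-109538160, GRCm39), stood at 176, 206 and 226 CPM in control rostral and 178, 155 and 187 CPM in control caudal libraries. In cKO it stood at 418, 313 and 411 CPM in rostral and 298, 397 and 236 CPM in caudal libraries. The lowest cKO library was thus above the highest control library, across regions, which held for no other imprinted gene of 38 (1.39% of all genes were higher in this way and 2.22% lower). In the counts per animal, Meg3 rose by 0.89 ± 0.09 SE on the log2 scale in cKO (edgeR adjusted p = 0.0231). The means gave 1.88 times the control level in rostral and 1.79 times in caudal cortex. Taken by region, the log2 fold changes were 0.92 ± 0.15 SE in rostral and 0.85 ± 0.18 SE in caudal cortex (edgeR adjusted p = 0.266 and 0.159), and neither passed. The call on summed counts was lost without control animal T4, T8 or T70 (edgeR adjusted p = 0.176, 0.162 and 0.138). It was kept without T3, T6 or T80 (0.0306, 0.0101 and 0.0398, edgeR adjusted p). The counts of Meg3 were fractional in 10 of the 12 libraries, and how shared reads were treated is not given.

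Rian, the next noncoding RNA of the same locus, varied little. It stood at 744, 771 and 760.1 CPM in control rostral, 731, 749 and 718 in control caudal, 805, 779 and 725 in cKO rostral and 893, 713 and 738 in cKO caudal libraries. Its log2 fold change on summed counts was 0.05, with a 95% interval of -0.12 to 0.22 and an unadjusted p of 0.528 in edgeR's fit. The ratio of Meg3 to Rian counts was 0.237, 0.268 and 0.297 in control rostral and 0.243, 0.206 and 0.260 in control caudal libraries. In cKO the ratio was 0.519, 0.402 and 0.567 in rostral and 0.334, 0.557 and 0.320 in caudal libraries, each above every control ratio. Mirg, the third noncoding RNA, was far less abundant, at 3.05, 3.70 and 3.50 CPM in control rostral and 5.94, 6.88 and 4.93 CPM in cKO rostral libraries, with no overlap between these groups. In caudal libraries it was 2.83, 2.85 and 2.80 CPM in control and 5.23, 6.34 and 2.76 CPM in cKO, where T80 lay below every control library. Its log2 fold change on summed counts was 0.78 ± 0.20 SE, which did not pass (edgeR adjusted p = 0.183), while DESeq2 and edgeR without the filter on low counts called it.

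The protein-coding genes of the locus are paternally expressed and were scarce. Dlk1, a membrane protein of the Notch ligand family, stood at 0.365, 0.275 and 0.369 CPM in control rostral and 1.73, 0.605 and 1.65 CPM in cKO rostral libraries, all cKO libraries above all controls. Control caudal libraries held 1.79, 0.832 and 1.14 CPM and cKO caudal libraries 0.523, 1.91 and 1.17 CPM, which overlap. In rostral cortex the log2 fold change of Dlk1 was 1.99 ± 0.45 SE with an edgeR adjusted p of 0.338, and 2.34 with 0.00686 when T6 was left out. Dio3, the deiodinase that inactivates thyroid hormone, stood at 0.164, 0.0916 and 0.144 CPM in control rostral and 1.80, 1.96 and 1.19 CPM in control caudal libraries. It was spread widely in cKO, at 3.16, 0.0550 and 0.352 CPM in rostral and 0.741, 2.38 and 0.150 CPM in caudal libraries. Its high cKO rostral library, T3, was also the one in which 10 choroid plexus genes summed to 403 CPM, against 4.96 and 18.6 CPM in T6 and T80 and 7.30 to 8.76 CPM in control rostral libraries. None of these 10 genes was at 0 in all libraries of a group, and their part in the Dio3 values was not tested. Rtl1, a retrotransposon-derived protein of placental vessels, stayed between 0.0313 and 0.264 CPM and was not tested in rostral cortex.

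**Figure D3:**
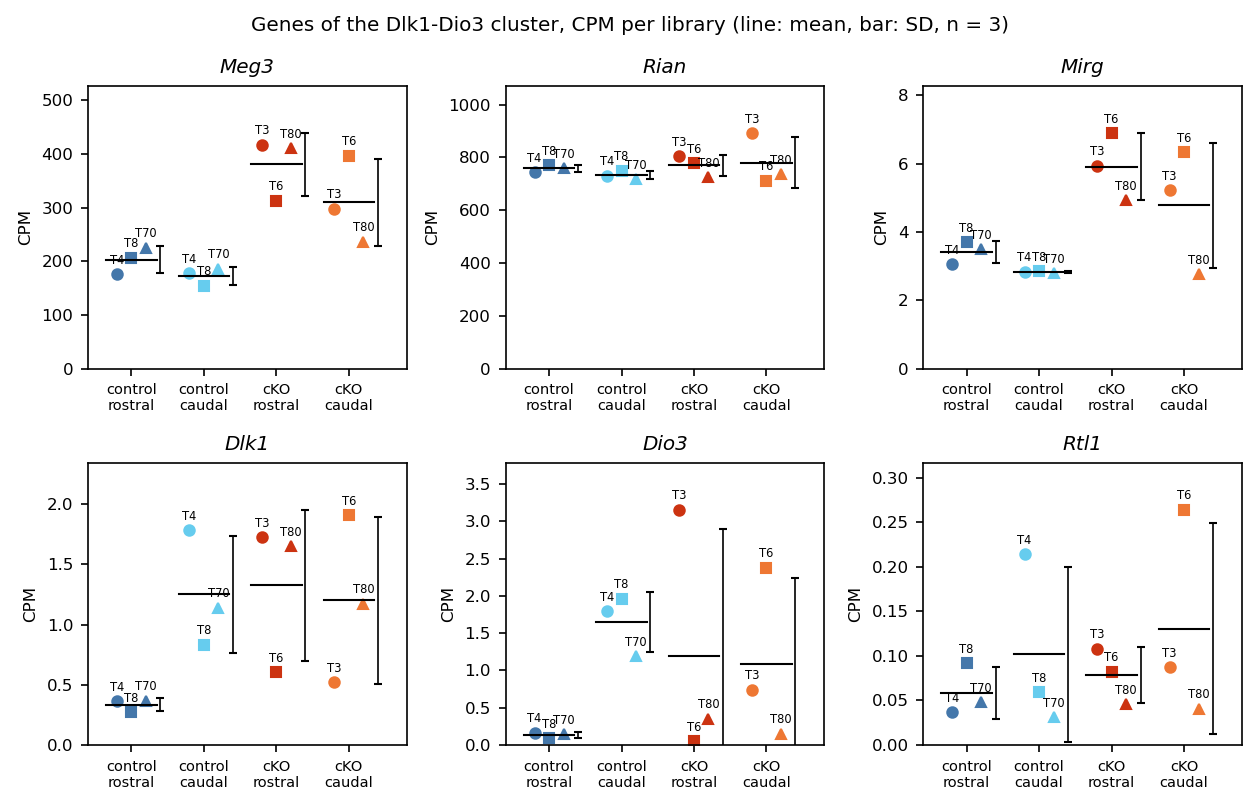
Panels show the CPM of genes of the Dlk1-Dio3 locus in each library, with the vertical axis starting at 0, lines at group means and bars of 1 SD (n = 3), clipped at 0. The 6 Meg3 values of cKO (236 to 418 CPM) lie above the 6 of control (155 to 226 CPM), whereas Rian lies between 713 and 893 CPM in all 12 libraries.

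In the Kcnq1 locus, Cdkn1c encodes a cyclin-dependent kinase inhibitor that limits growth and is maternally expressed. It stood at 9.08, 8.16 and 9.59 CPM in control rostral and 19.5, 13.9 and 25.7 CPM in cKO rostral libraries, 2.20 times higher by the means and with no overlap. In caudal cortex the order was different, 23.8, 23.2 and 25.2 CPM in control against 12.02, 25.2 and 18.6 CPM in cKO, with T3 and T80 below every control library. The rostral log2 fold change of 1.15 ± 0.23 SE did not pass (edgeR adjusted p = 0.312). Kcnq1ot1, the paternally expressed antisense RNA of the locus, stood at 4.82, 6.09 and 7.31 CPM in control rostral and 8.79, 9.55 and 14.98 CPM in cKO rostral libraries. In caudal libraries it was 4.63, 4.38 and 5.07 CPM in control and 4.75, 7.90 and 6.43 CPM in cKO, and T3 of cKO lay within the control range. On summed counts its log2 fold change was 0.71 ± 0.16 SE (edgeR adjusted p = 0.154), called by DESeq2 and without the filter on low counts. Its counts were fractional in all 12 libraries and it overlaps Kcnq1 on the other strand. Without a stated strand setting its reads cannot be told apart from those of Kcnq1. Kcnq1 was at 1.39, 1.44 and 1.57 CPM in control rostral and 1.09, 0.412 and 1.24 CPM in cKO rostral libraries. In caudal libraries Kcnq1 was at 1.48, 0.907 and 1.16 CPM in control and 0.871, 0.822 and 0.901 CPM in cKO. The part of Kcnq1 reads in the Kcnq1ot1 values was not tested. Slc22a18, a membrane transporter, was at 0.250, 0.268 and 0.250 CPM in control caudal and 0.0436, 0.132 and 0.109 CPM in cKO caudal libraries (log2 fold change -1.33 ± 0.39 SE, edgeR adjusted p = 0.23). Phlda2, a placental growth limiter, never exceeded 0.0765 CPM.

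The Igf2-H19 locus holds Igf2, the paternally expressed insulin-like growth factor 2, and H19, a maternally expressed noncoding RNA. Igf2 (chr7:142204503-142220553, GRCm39) stood at 119.7, 58.9 and 118 CPM in control rostral and 188, 131 and 175 CPM in control caudal libraries. In cKO it stood at 246, 12.4 and 252 CPM in rostral and 49.9, 317 and 285 CPM in caudal libraries, the lowest and the highest of all 12 lying in this genotype. The log2 fold changes were 0.80 ± 0.91 SE in rostral and 0.40 ± 0.68 SE in caudal cortex, with edgeR adjusted p of 0.727 and 0.83. H19 stood at 13.1, 10.7 and 15.1 CPM in control rostral, 22.1, 23.3 and 25.2 in control caudal, 27.2, 9.76 and 66.7 in cKO rostral and 6.06, 45.2 and 44.4 in cKO caudal libraries. Its log2 fold change on summed counts was 0.85 ± 0.34 SE (edgeR adjusted p = 0.305). In perinatal brain, Igf2 is known to be made in meninges and choroid plexus. The summed level of 12 meningeal fibroblast genes was 369.9, 168 and 319.8 CPM in control rostral, 538, 444 and 534 in control caudal, 532, 36.5 and 697 in cKO rostral and 127, 647 and 821 in cKO caudal libraries. The libraries low in Igf2, cKO rostral T6 and cKO caudal T3, were the lowest on this sum, and none of the 12 genes was at 0 in all libraries of a group. Igf2 divided by the sum was 0.294 to 0.369 in control and 0.340 to 0.489 in cKO libraries. H19 divided by the sum was 0.0355 to 0.0636 in control and 0.0478 to 0.0958 in 5 cKO libraries, with 0.268 in cKO rostral T6. In bulk tissue, fewer cells of a type and less RNA per cell cannot be told apart, and the part of meningeal tissue in these values was not tested.

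**Figure D4:**
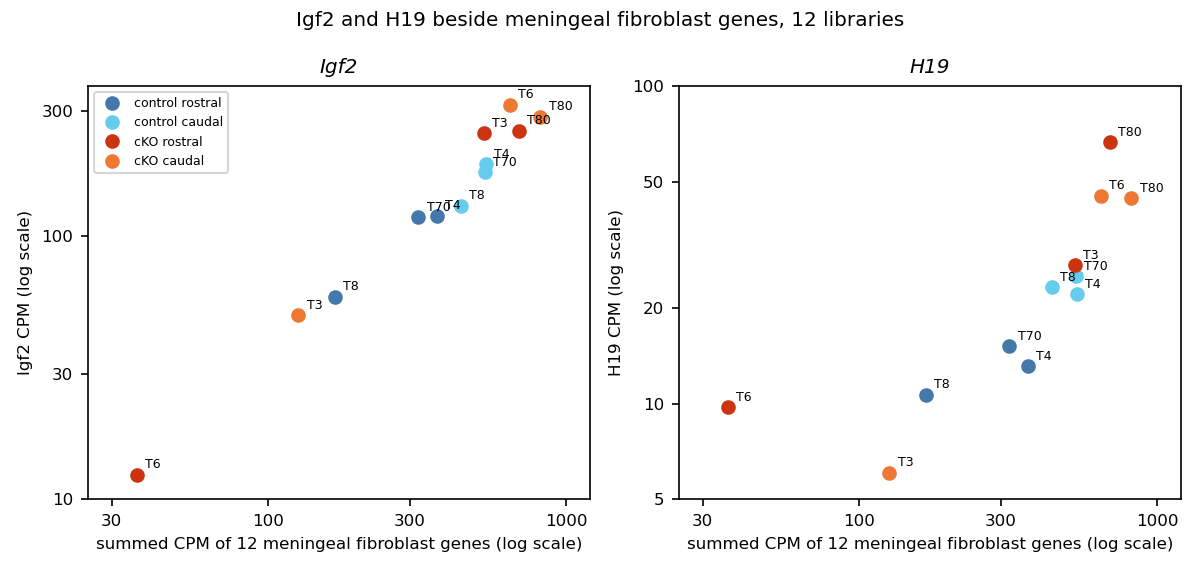
Each point is 1 of the 12 libraries, with the summed CPM of 12 meningeal fibroblast genes on the horizontal axis and the CPM of Igf2 (left) or H19 (right) on the vertical axis, both on log scales. Igf2 runs from 12.4 CPM at a sum of 36.5 CPM (cKO rostral T6) to 317 CPM at 647 CPM (cKO caudal T6), and H19 of cKO rostral T6 lies above the run of the other libraries.

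Igf2r, the maternally expressed receptor that clears IGF2, was at 53.6, 51.4 and 54.96 CPM in control rostral and 62.8, 59.8 and 66.8 CPM in cKO rostral libraries, a log2 fold change of 0.25 ± 0.09 SE that did not pass (edgeR adjusted p = 0.464). Airn, the paternally expressed RNA antisense to Igf2r, was at 1.01, 0.916 and 0.738 CPM in control rostral and 1.28, 1.42 and 1.27 CPM in cKO rostral libraries. For both genes every cKO value lay above every control value of the region, and the 2 genes overlap on opposite strands. Caudal values of both genes overlapped between genotypes. Plagl1, a paternally expressed zinc finger regulator of growth genes, stood at 30.6, 27.4 and 31.7 CPM in control rostral and 54.7, 72.2 and 42.7 CPM in cKO rostral libraries. In caudal libraries it was 42.1, 34.9 and 37.7 CPM in control and 39.9, 78.4 and 39.8 CPM in cKO, where only T6 exceeded the controls. On summed counts its log2 fold change was 0.67 ± 0.20 SE (edgeR adjusted p = 0.229).

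The Peg3 locus holds 2 paternally expressed genes, the zinc finger gene Peg3 and its neighbour Usp29, and the maternally expressed Zim1. Zim1 (chr7:6674268-6699449, GRCm39) stood at 15.1, 15.4 and 16.8 CPM in control rostral and 30.2, 23.1 and 22.8 CPM in cKO rostral libraries, with no overlap and a log2 fold change of 0.69 ± 0.14 SE (edgeR adjusted p = 0.312). In caudal libraries it was 31.1, 27.3 and 29.2 CPM in control and 23.7, 34.2 and 29.6 CPM in cKO, which overlap. Peg3 was at 152, 147 and 163 CPM in control rostral and 203, 211 and 180.4 CPM in cKO rostral libraries (log2 fold change 0.37 ± 0.09 SE, edgeR adjusted p = 0.358). Usp29 stayed between 81.1 and 127 CPM. Mest, a paternally expressed hydrolase-like gene, was at 49.6, 50.9 and 56.1 CPM in control rostral and 61.4, 75.2 and 65.3 CPM in cKO rostral libraries (log2 fold change 0.37 ± 0.10 SE, edgeR adjusted p = 0.393). Its span overlaps Copg2 on the other strand. Copg2, a coat protein of Golgi vesicles, was lowest in both T6 libraries, at 30.9 CPM rostral and 38.8 CPM caudal against 45.9 to 54.9 CPM in the other 10.

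Peg10, a retrotransposon-derived gene that is paternally expressed, was high in 1 animal. The cKO rostral libraries held 47.2, 114 and 29.2 CPM and the cKO caudal libraries 32.4, 84.5 and 28.7 CPM, so that both T6 libraries lay above the 28.7 to 49.4 CPM of the other 10. Of its neighbours, Sgce, which encodes epsilon-sarcoglycan, was at 18.9, 24.7 and 18.5 CPM in cKO rostral libraries. Ppp1r9a (neurabin, an actin-binding protein of synapses) was at 239, 311 and 231 CPM there, and Asb4 stayed between 1.25 and 1.84 CPM in all 12 libraries. Zdbf2, a paternally expressed zinc finger gene, was at 41.1, 41.2 and 45.1 CPM in control rostral and 57.3, 51.4 and 47.4 CPM in cKO rostral libraries (log2 fold change 0.30 ± 0.10 SE, edgeR adjusted p = 0.454).

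No gene of the Prader-Willi/Angelman locus passed a test of genotype. Snrpn was at 316 ± 14.9 CPM in control rostral, 323 ± 8.54 in control caudal, 298 ± 36.0 in cKO rostral and 295 ± 15.7 in cKO caudal cortex. Its counts were fractional in every library and it shares its span with Snurf. Ube3a, the maternally expressed ubiquitin ligase of Angelman syndrome, was at 224 ± 25.8 and 208 ± 11.8 CPM in control rostral and caudal cortex and 249.9 ± 22.9 and 228 ± 7.02 CPM in cKO. It overlaps Snhg14 on the other strand. Ndn, a growth-restraining protein of neurons, was at 208, 199 and 227 CPM in control caudal and 187, 158 and 187 CPM in cKO caudal libraries, a log2 fold change of -0.24 ± 0.09 SE that did not pass (edgeR adjusted p = 0.292). Magel2 and Mkrn3 overlapped between genotypes in both regions. Peg12, a small paternally expressed gene related to GSK3-binding proteins, differed in direction between the regions. It stood at 2.16, 2.26 and 2.50 CPM in control rostral and 1.66, 1.26 and 1.67 CPM in cKO rostral libraries, every cKO value lower. In caudal libraries it stood at 1.39, 1.72 and 1.66 CPM in control and 1.87, 2.05 and 1.94 CPM in cKO, every cKO value higher. The difference between the 2 genotype effects was 0.90 ± 0.24 SE on the log2 scale and did not pass (edgeR adjusted p = 0.99967, unadjusted 0.00279). It rests on the same values as the opposite pattern and is not separate support.

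On chromosome 2, Nnat lies within the span of Blcap on the other strand. Nnat (chr2:157401998-157404442, GRCm39) stood at 275, 251 and 239 CPM in control rostral and 543, 308 and 443 CPM in cKO rostral libraries, with no overlap and a log2 fold change of 0.77 ± 0.21 SE (edgeR adjusted p = 0.384). In caudal libraries it was 594, 551 and 501 CPM in control and 377, 831 and 351 CPM in cKO. There T6 lay above every control library and T3 and T80 below. Gnas was at 918 ± 57.04 CPM in control rostral and 939 ± 134 CPM in cKO rostral cortex. Grb10, an adaptor that restrains insulin and IGF signalling, was at 64.9 ± 4.61 and 64.6 ± 6.10 CPM there. Impact, a regulator of translation, was at 42.2 ± 3.09 and 47.1 ± 5.30 CPM, and Nap1l5, a histone chaperone family member, at 86.2 ± 5.27 and 118 ± 40.8 CPM. In the Peg13-Trappc9 locus, Trappc9, a subunit of a vesicle-tethering complex, was at 55.1, 54.1 and 55.7 CPM in control caudal and 40.4, 42.2 and 49.2 CPM in cKO caudal libraries, every cKO value lower. Its log2 fold change of -0.31 ± 0.08 SE did not pass in edgeR (adjusted p = 0.188). Peg13 lies within the span of Trappc9 on the same strand, and its rostral levels of 253 ± 13.1 CPM in control and 248 ± 47.7 CPM in cKO overlapped.

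The other comparison of the design is between the regions, fitted without a term for the animal. In control animals, 10 of 37 imprinted genes passed edgeR's test, 8 higher and 2 lower in caudal cortex, against 12.2% of all 20461 genes (6.3% higher and 5.88% lower). At an unadjusted p under 0.05, 16 were higher and 7 lower, 62.2% against 25.8% of all genes (13.3% higher and 12.5% lower). Groups did not overlap for 19 that were higher (16.9% of all genes) and 5 that were lower (14.4% of all genes), and the median log2 fold change was 0.16, beside 0.00 over all genes. The growth inhibitor Cdkn1c rose 2.69-fold by the means, from 8.94 ± 0.727 CPM in rostral to 24.1 ± 1.05 CPM in caudal cortex (log2 fold change 1.42 ± 0.08 SE, edgeR adjusted p = 6.9e-06). Nnat rose 2.15-fold, from 255 ± 18.4 to 549 ± 46.7 CPM (log2 fold change 1.10 ± 0.07 SE, edgeR adjusted p = 2.1e-05). Its partner Blcap, a small membrane protein gene, rose less, from 74.95 ± 0.334 to 93.6 ± 4.63 CPM (log2 fold change 0.32 ± 0.05 SE). Zim1 rose 1.85-fold, from 15.8 ± 0.899 to 29.2 ± 1.88 CPM (log2 fold change 0.88 ± 0.07 SE, edgeR adjusted p = 3.6e-05). Neither Peg3 nor Usp29 passed, and the difference between these genes and Zim1 was not tested.

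At the Dlk1-Dio3 locus, Dlk1 and Dio3 rose in control caudal cortex, and Rtl1 had too few counts to be tested. Dio3 went from 0.134 ± 0.0376 to 1.65 ± 0.407 CPM (log2 fold change 3.62 ± 0.30 SE, edgeR adjusted p = 5.1e-05) and Dlk1 from 0.336 ± 0.0533 to 1.25 ± 0.486 CPM (log2 fold change 1.90 ± 0.31 SE, edgeR adjusted p = 0.00294). The noncoding RNAs of the locus were not called, with log2 fold changes of -0.23 for Meg3, -0.06 for Rian and -0.28 for Mirg. H19 rose from 12.98 ± 2.24 to 23.5 ± 1.60 CPM (log2 fold change 0.85 ± 0.12 SE, edgeR adjusted p = 0.00161). Igf2 had a log2 fold change of 0.73 ± 0.35 SE and did not pass, and the fit with the animal as a replicate block called it, along with Impact. The summed meningeal genes were 168 to 370 CPM in control rostral and 444 to 538 CPM in control caudal libraries. The summed choroid plexus genes were 7.30 to 8.76 CPM in control rostral and 193, 15.8 and 223 CPM in control caudal libraries. Of 8 hippocampal genes, 8 were higher in control caudal cortex and 6 passed edgeR's test. Their sum was 255 to 283 CPM in control rostral and 370 to 460 CPM in control caudal libraries. Of 10 oligodendrocyte lineage genes, 10 were lower there and 6 passed. The part of these tissues and cell types in the regional values of the imprinted genes, Cdkn1c, Nnat and Zim1 included, was not tested. Plagl1 rose from 29.9 ± 2.24 to 38.2 ± 3.61 CPM (log2 fold change 0.35 ± 0.08 SE). Peg12 fell from 2.31 ± 0.178 to 1.59 ± 0.175 CPM (log2 fold change -0.54 ± 0.15 SE) and Peg13 from 253 ± 13.1 to 217 ± 4.67 CPM (-0.23 ± 0.05 SE on the log2 scale). Leaving out T4 ended the calls of Plagl1, Peg12 and Peg13, leaving out T8 those of Peg12 and Peg13, and leaving out T70 those of Plagl1 and Peg12. With 1 fit over all 12 libraries, in which the cKO libraries share in setting the spread, Cdkn1c and Zim1 were called.

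In cKO animals, none of 36 imprinted genes differed between the regions by edgeR, and neither did any of 20944 genes (0.0%). At an unadjusted p under 0.05 there was 1, Kcnq1ot1, lower in caudal cortex (log2 fold change -0.80 ± 0.27 SE), against 1.66% of all genes (0.668% higher and 0.993% lower), and DESeq2 and limma voom with quality weights called none. Peg12 was higher in every caudal cKO library than in every rostral one (2.55% of all genes), and Gnas, Grb10, Kcnq1ot1 and Ppp1r9a lower (3.17%). For 5 of the 10 genes called between control regions, the caudal to rostral ratio of cKO means was 0.945 for Cdkn1c, 1.21 for Nnat, 1.15 for Zim1, 0.905 for Dlk1 and 0.917 for Dio3. The same ratios in control were 2.69, 2.15, 1.85, 3.73 and 12.4. These 5 genes were chosen after the data were seen. Of the other 5, H19 had a ratio of 1.81 in control and 0.922 in cKO. In the same order, the ratios were 1.28 and 0.933 for Plagl1 and 1.25 and 1.03 for Blcap. They were 0.690 and 1.28 for Peg12 and 0.858 and 0.915 for Peg13. For the first 5 genes, the ratios of cKO means cover animals that went opposite ways. In T6 the caudal library was above the rostral one for each of the 5, from 0.0550 to 2.38 CPM for Dio3, 0.605 to 1.91 for Dlk1, 13.9 to 25.2 for Cdkn1c, 308 to 831 for Nnat and 23.1 to 34.2 for Zim1. In T3 it was below for each of the 5, from 3.16 to 0.741 CPM for Dio3, 1.73 to 0.523 for Dlk1, 19.5 to 12.02 for Cdkn1c, 543 to 377 for Nnat and 30.2 to 23.7 for Zim1. T80 was lower in caudal cortex for all but Zim1. Without T3 the ratio of means was 6.21 for Dio3 and 1.37 for Dlk1, and without T6 it was 0.254 for Dio3, 0.502 for Dlk1 and 0.738 for Nnat. The regional score was higher in the rostral than in the caudal library of T3, at 0.855 against 0.557. The genes that build this score include these 5 genes, so it is not a separate observation. Its part in these ratios was not tested. A missed threshold does not show that the regions are alike in cKO, since the 95% interval of the log2 fold change ran from -0.81 to 0.66 for Cdkn1c and from -0.60 to 1.14 for Nnat.

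**Figure D5:**
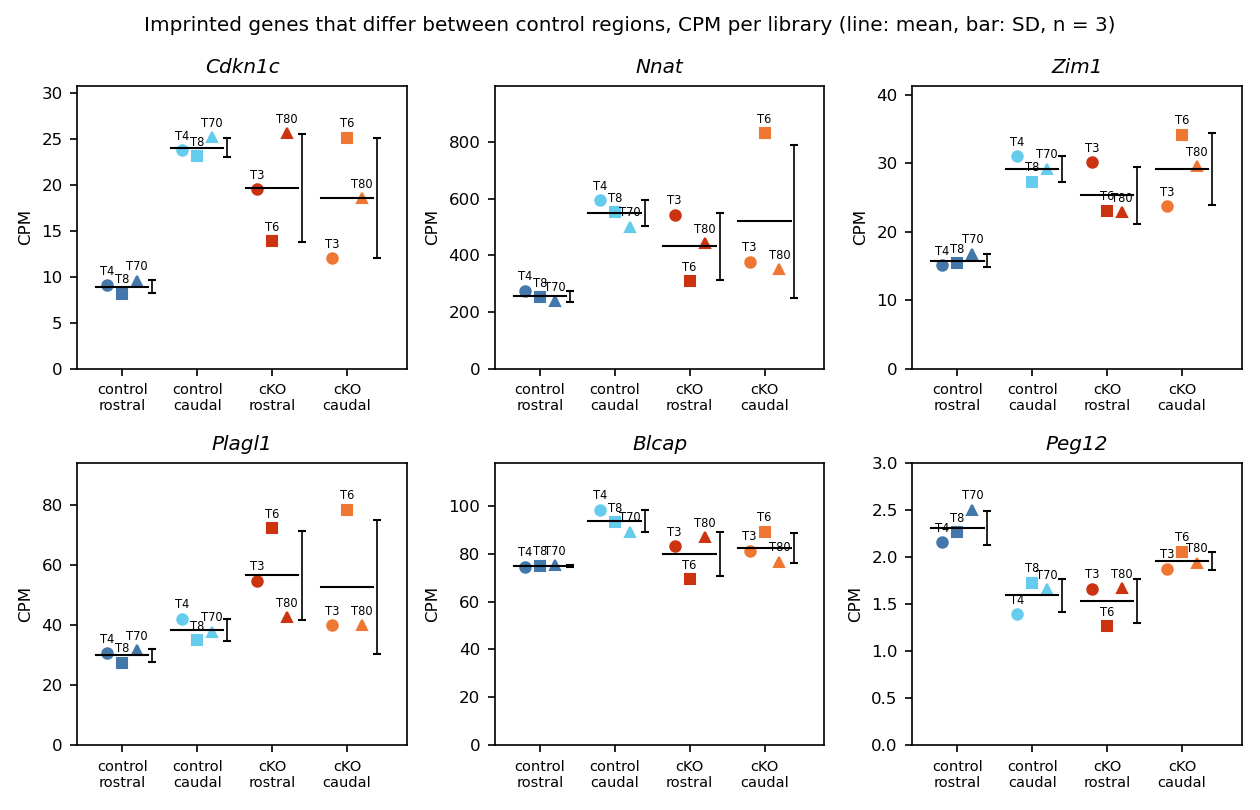
Panels show the CPM of 6 of the genes called between control regions in each of the 12 libraries, with the vertical axis starting at 0, lines at group means and bars of 1 SD (n = 3). Control rostral and caudal libraries of Cdkn1c, Nnat and Zim1 are separate, whereas the cKO regions overlap for these genes, and Peg12 lies lower in control caudal and higher in cKO caudal libraries than in the rostral libraries of the same genotype.

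The difference between the regional effects of the 2 genotypes was tested as an interaction. None of 37 imprinted genes passed in edgeR (0.0% of 21599 genes). At an unadjusted p under 0.05, 5 were negative and 1 positive, 16.2% against 3.55% of all genes (2.3% negative and 1.25% positive). Cdkn1c had an interaction of -1.50 ± 0.35 SE, Zim1 of -0.68 ± 0.20 SE, Dlk1 of -2.03 ± 0.69 SE, Dio3 of -3.74 ± 1.65 SE and Slc22a18 of -2.04 ± 0.89 SE on the log2 scale, all with an edgeR adjusted p of 0.99967. DESeq2 called Cdkn1c, limma voom with quality weights Cdkn1c and Zim1, and edgeR without T6 called 5, Blcap, Cdkn1c, Dlk1, Nnat and Zim1 (475 of all genes). Without T6 the interaction of Cdkn1c was -1.97 with an edgeR adjusted p of 0.00382. The imprinted genes that stood higher in cKO rostral libraries include Cdkn1c, Nnat, Zim1, Dlk1 and Plagl1, which were higher in caudal than in rostral cortex of controls. Of the others above every control rostral library, Airn, Igf2r, Peg3, Sgce and Zdbf2 had positive log2 fold changes between control regions, none passing. Meg3 (-0.23), Mirg (-0.28), Kcnq1ot1 (-0.38) and Mest (-0.20) had negative ones, which did not pass either. In the same cKO rostral libraries, T3 and T80 scored nearer to the control caudal than to the control rostral mean on the regional score, and T6 did not. The part of this regional score in the rostral values was not tested. The rostral genotype effect, the control regional effect, the interaction and the score all use the control rostral libraries. They are therefore not independent of each other.

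Imprinted genes outside the 39 were counted for comparison. Of 48 found in the tables, 40 were tested in rostral cortex, 40 in caudal cortex and 43 on summed counts, and none passed in any genotype comparison. In rostral cortex 3 were higher and 5 lower at an unadjusted p under 0.05 (20% of the 40 against 9.49% of all genes), and their median log2 fold change was -0.06. In caudal cortex 1 was higher and 6 lower by this rule, 17.5% of the 40 against 14.5% of all genes. On summed counts 3 were higher and 10 lower by this rule, 30.2% of the 43 against 15.4% of all genes. Ampd3, a purine-metabolism deaminase, was lower in both regions, with log2 fold changes of -0.86 ± 0.12 SE in rostral and -0.61 ± 0.13 SE in caudal cortex (edgeR adjusted p = 0.238 and 0.139). Between control regions 10 of 39 passed, 5 higher and 5 lower in caudal cortex, against 12.2% of all genes (6.3% higher and 5.88% lower). Among these, the serotonin receptor gene Htr2a fell by 0.64 and Cobl, an actin nucleator, fell by 0.51 on the log2 scale, while Bcl2l11, a cell-death activator, rose by 0.71 and Phactr2 by 0.64.

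Factors that set or keep imprints were 24 genes, of which 19 were tested. In rostral cortex 4 of the 19 were higher in cKO at an unadjusted p under 0.05, in caudal cortex 12 and on summed counts 5 (5.51%, 7.65% and 8.24% of all genes were higher by this rule). None was lower, and none passed the adjustment. Zfp57 had log2 fold changes of 0.50 ± 0.10 SE in rostral and 0.42 ± 0.08 SE in caudal cortex (edgeR adjusted p = 0.31 and 0.125), and 0.45 ± 0.08 SE on summed counts (edgeR adjusted p = 0.0831). Tet2, an enzyme that oxidises methylated cytosine, had log2 fold changes of 0.53 ± 0.19 SE and 0.50 ± 0.10 SE in the same regions, and was the only one of the 19 called between control regions, lower in caudal cortex (log2 fold change -0.37 ± 0.09 SE, edgeR adjusted p = 0.031). Of the 14 genes of the IGF axis beside Igf2 and Igf2r, 4 were higher in rostral and 7 in caudal cortex of cKO at an unadjusted p under 0.05 (5.51% and 7.65% of all genes), and none passed. Igf1r, the receptor that carries IGF2 signals, had log2 fold changes of 0.33 ± 0.07 SE in rostral and 0.27 ± 0.08 SE in caudal cortex (edgeR adjusted p = 0.338 and 0.239). Igfbp3, a secreted IGF-binding protein, had 1.03 ± 0.21 SE and 0.39 ± 0.13 SE in the same regions (edgeR adjusted p = 0.312 and 0.267), and passed between control regions, higher in caudal cortex (log2 fold change 0.57 ± 0.07 SE, edgeR adjusted p = 0.000422), as did Igfbp2 (0.30 ± 0.07 SE, edgeR adjusted p = 0.0168).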

How the data were processed

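Per the submitters' processing notes, reads were aligned with STAR 2.7.8a to GRCm39 and counted per gene with featureCounts 2.0.3. Their annotation release, strand setting and treatment of shared reads: not given in the sources used here. As deposited by the authors, values are expected counts per gene, since 9.69% to 14.3% of the values of a library are fractional. They were rounded to whole numbers before testing, where the design had planned for whole counts. Each comparison was fitted on its own groups with edgeR 4.0.16 (R 4.3.3; filterByExpr, TMM, robust quasi-likelihood test, Benjamini-Hochberg adjustment over all genes tested, threshold 0.05). Levels are CPM with TMM factors over all 12 libraries, and ratios of means use these levels.

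The imprinted genes and the comparison lists were chosen with earlier results of these data known. Fold changes with a test are printed for imprinted genes with an unadjusted p under 0.05 in that comparison, and others where their level is described, and up to 4 genes of smallest p are named from each other list. From the sample titles, a T number was taken to mark 1 animal with a rostral and a caudal library. The deviations of each pair from the group means correlated at r = 0.42 (T4), 0.436 (T8), 0.498 (T70), -0.0302 (T3), -0.03 (T6) and 0.598 (T80) over 15990 genes. The replicate block could be fitted for region and interaction only, since genotypes share no animal. The main region and interaction fits held no term for the animal. They treated the rostral and caudal library of an animal as independent. Alternatives were other scalings, DESeq2 1.42.0, filters, leaving out each animal, 1 fit over all 12 libraries and, added after the data were seen, limma 3.58.1 voom with library quality weights and ratios of cKO means with an animal left out.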

Additional observations from a re-analysis of the deposited data

Results flagged for a closer look

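Peg12 lay on opposite sides of control in the 2 regions, which was the reason for a closer look. Every cKO rostral library was below every control rostral library, and every cKO caudal library was above every control caudal library. The difference between the genotype effects was 0.90 on the log2 scale and did not pass edgeR's interaction test (unadjusted p = 0.00279, adjusted p = 0.99967). Peg12 was picked for its opposite pattern on the same values, so the unadjusted p is not separate support. Of all genes, 10.7% lay below every control library in rostral cortex and 10.4% above every control library in caudal cortex. The share with both patterns was not counted. The gene was scarce, between 1.26 and 2.50 CPM over the 12 libraries, and its counts ran from 86 to 156 a library.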

How the results depend on the processing

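Of the imprinted genes, the number called was 0, 0 and 1 for genotype (rostral, caudal, summed), 10 and 0 for region (control, cKO) and 0 for the interaction. RLE and upper-quartile factors gave 0 for each genotype comparison by region, 1 on summed counts and 10 and 11 for region in control. DESeq2 gave 7 (rostral), 2 (caudal), 4 (summed), 12 (region in control) and 1 (interaction). Removing the filter on low counts gave 1 (rostral), 3 (summed) and 18 (region in control). The filter of 1 CPM or more in 3 libraries gave 9 for region in control, without Dlk1. A single fit over all 12 libraries gave 2 for region in control. Voom with quality weights, added after the data were seen, gave 10 (rostral), 14 (region in control) and 2 (interaction). Leaving out 1 animal at a time gave 0 to 8 in rostral cortex, 0 to 1 in caudal cortex, 0 to 1 on summed counts, 8 to 10 for region in control and 0 to 5 for the interaction. The replicate block gave 12 for region in control (Igf2 and Impact added), and 0 for region in cKO and for the interaction, and changed no other call. For region in control, counts under other scalings, tools, filters and the block are given without those of all genes. They are thus not read as particular to imprinted genes. None of the named fold changes that were called reversed its direction under these alternatives.

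Over all genes, rostral calls went from 0 to 394 with DESeq2, 45 with no filter, 101 with 1 fit, 974 with voom and 0 to 1058 with an animal left out. Caudal calls went from 17 to 517, 326, 1 and 373 under the same settings and 0 to 162 with an animal left out. Summed calls went from 41 to 803 (DESeq2), 320 (no filter), 736 (voom) and 1 to 685. Calls of region in control went from 2492 to 78 with 1 fit and 1079 to 1690 with an animal left out. Region in cKO gave 4 with DESeq2, and the interaction 14 with DESeq2, 2 with no filter, 149 with voom and 0 to 475 with an animal left out. The cause of these shifts was not tested. Genes under 1 CPM, such as Rtl1, Phlda2 and Slc22a18, rest on the fewest reads.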

Other observations

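Imprinted genes were often highest in the same library of a group. In the cKO caudal group, T6 held the highest level of 28 of 37 imprinted genes (75.7%) and of 39.3% of all genes tested. In the control caudal group, T4 was highest for 21 of 37 (56.8%, against 37.1% of all genes), and in the control rostral group T70 for 21 of 36 (58.3%, against 39.4%). In the cKO rostral group T6 was highest for 14 of 36 (38.9%, against 41.9% of all genes) and lowest for 17 (44.7% of all genes were lowest there). The genes of 1 locus share reads or regulation and are not independent counts, so these shares are a description. In cKO caudal T6 the summed hippocampal genes were also the highest of the 12 libraries, at 898 CPM against 255 to 598 CPM elsewhere. The same held for the summed choroid plexus genes, at 564 CPM against 4.96 to 403 CPM. Sums of astrocyte genes (2715 CPM), radial glia and neural stem cell genes (515 CPM) and endothelial and mural genes (508 CPM) were highest there too. Meningeal genes, at 647 CPM, were not. The part of these cell types in the values of the imprinted genes was not tested.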
